A study of Arabidopsis thaliana with 4 samples.

Results

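Glucosinolates are the sulfur-rich defence compounds of the cabbage family, and 36 genes of their synthesis, control and breakdown are described here in blue-light-grown Arabidopsis thaliana seedlings. The genes were chosen by function: 21 belong to the aliphatic branch, 8 to the indolic branch, 3 are core enzymes that both branches share and 4 act in breakdown. Rows for 35 of the 36 were found among the 27416 gene rows of the tables, and AOP2 was not analysed here. Of the 35, 22 reached 1 RPKM (reads scaled by gene length and by library depth) in at least 2 libraries and were tested, while 13 did not reach it.

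The 4 libraries of poly(A) RNA from seedlings of the Col-0 ecotype fell into 2 groups. The CNT1 group (genotype 35S::CNT1-NLS-YFP;cry1, 2 libraries) overexpressed the N-terminal photolyase homology region of the blue-light receptor CRY1, fused to a nuclear localisation signal and a yellow fluorescent protein and driven by the viral 35S promoter. The CNT1-G283E group (genotype 35S::CNT1-G283E-NLS-YFP;cry1, 2 libraries) overexpressed the same fusion with the G283E substitution, and both groups carried the cry1 mutation. All seedlings had 3 days of cold, 12 h of white light and then 4 days of blue light at an intensity of 15 μmol/m2/s, a labelled growth time of 4.5 days. The comparison asked which genes CNT1 regulates. The labels do not say whether each genotype is 1 transgenic line or whether replicates came from separate cultures, so the spread behind each p-value may be no more than technical.

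Differences are given as CNT1 minus CNT1-G283E on log2(RPKM + 1), a fold is the ratio of mean RPKM, and a gene was called when its limma p, adjusted over all 19201 genes tested by the Benjamini-Hochberg method, was under 0.05. By this rule 60.0% of all tested genes were called, 31.1% higher in CNT1 and 29.0% lower, and a call by itself does not set a gene apart. Of the 22 tested glucosinolate genes 12 were called higher in CNT1, 8 were called lower and 2 were not called. The groups did not overlap in RPKM for 21 of the 22, against 80.9% of all tested genes. BAT5 and ESP, both lower in CNT1, passed the low-value filter only through CNT1-G283E. The RPKM values rested on 28524534 and 28098772 reads in CNT1 and on 27065174 and 24436863 reads in CNT1-G283E, as recovered from the values. CRY1 was read at 823 and 825 RPKM in CNT1 and at 1152 and 1036 RPKM in CNT1-G283E. It was called lower in CNT1 (-0.41 ± 0.058, log2, SE; limma adjusted p = 0.000534). The reading sums the transgene with any endogenous transcript and so does not check the labels. Whether this difference in level bears on the other genes was not tested.

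A glucosinolate is built in 3 stages. For the aliphatic branch, methionine is first lengthened by a cycle borrowed from leucine synthesis. In both branches the amino acid is then turned into an aldoxime by CYP79 enzymes, oxidised by CYP83 enzymes, joined to a sulfur donor, cleaved, glucosylated and sulfated, and the side chain is modified afterwards. The indolic branch starts from tryptophan. R2R3-MYB factors switch the branches on together with MYC factors, and when tissue breaks, myrosinases release products whose kind is set by specifier proteins. In Arabidopsis seedlings both branches are known to be active. Gene positions below are those of the TAIR10.1 annotation.

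Promoter sequence was read from TAIR10.1 for the members whose behaviour is compared below, in each case the 250 bases before the annotated gene start, written 5′ to 3′ on the gene's strand. CYP79B2 (chr4:18524792-18525041, plus strand) and CYP79B3 (chr2:9488163-9488412, plus strand) are shown because CYP79B3 was called lower in CNT1 and its paralogue was not called. The capitals mark the longest run of bases the 2 promoters have in common, 22 bases, which begins 77 bases before the start of CYP79B2 and 151 bases before that of CYP79B3.
CYP79B2: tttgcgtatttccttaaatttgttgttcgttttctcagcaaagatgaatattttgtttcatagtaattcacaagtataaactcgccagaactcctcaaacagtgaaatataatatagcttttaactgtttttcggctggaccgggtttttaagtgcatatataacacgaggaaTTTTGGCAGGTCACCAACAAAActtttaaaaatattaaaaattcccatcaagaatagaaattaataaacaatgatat
CYP79B3: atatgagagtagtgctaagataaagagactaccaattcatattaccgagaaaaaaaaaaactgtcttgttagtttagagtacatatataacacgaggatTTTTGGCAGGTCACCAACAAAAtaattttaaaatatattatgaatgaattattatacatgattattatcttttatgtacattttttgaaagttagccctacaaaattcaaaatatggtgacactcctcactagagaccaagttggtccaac

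TGG1 (chr5:9082385-9082634, minus strand) and TGG2 (chr5:9072458-9072707, plus strand) are shown because both myrosinase genes moved the same way by different amounts. Capitals again mark the longest common run, 21 bases, which begins 116 bases before the start of TGG1 and 92 bases before that of TGG2.
TGG1: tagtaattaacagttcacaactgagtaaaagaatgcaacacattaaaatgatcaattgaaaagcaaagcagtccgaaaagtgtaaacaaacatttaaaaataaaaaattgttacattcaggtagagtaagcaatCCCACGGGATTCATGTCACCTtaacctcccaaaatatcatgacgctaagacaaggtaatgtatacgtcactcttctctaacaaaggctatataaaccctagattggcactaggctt
TGG2: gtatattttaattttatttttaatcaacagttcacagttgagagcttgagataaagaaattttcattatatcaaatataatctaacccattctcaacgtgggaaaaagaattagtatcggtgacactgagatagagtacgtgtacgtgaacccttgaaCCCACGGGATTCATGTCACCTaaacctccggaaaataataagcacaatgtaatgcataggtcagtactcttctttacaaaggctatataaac

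The G-box CACGTG, a palindrome read alike on both strands and the element bound by MYC and several light-signalling factors, was searched in the same window of every gene with a promoter. It stood in 3 of 35 members (8.6%) and in 1780 of 27443 protein-coding genes (6.5%). The 3 members were IIL1 (chr4:7807985-7808234, minus strand), SUR1 (chr2:8880441-8880690, minus strand) and CYP83A1 (chr4:7992430-7992679, minus strand), whose promoters are given with the G-box in capitals.
IIL1: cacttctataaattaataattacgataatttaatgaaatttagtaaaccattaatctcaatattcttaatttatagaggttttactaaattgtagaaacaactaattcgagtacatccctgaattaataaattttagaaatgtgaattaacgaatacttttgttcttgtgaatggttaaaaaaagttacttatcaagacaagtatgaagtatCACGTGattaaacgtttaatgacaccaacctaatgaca
SUR1: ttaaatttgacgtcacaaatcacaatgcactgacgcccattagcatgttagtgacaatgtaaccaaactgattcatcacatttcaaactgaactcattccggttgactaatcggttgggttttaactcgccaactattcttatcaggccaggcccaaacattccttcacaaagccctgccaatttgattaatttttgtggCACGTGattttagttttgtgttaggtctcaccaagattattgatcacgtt
CYP83A1: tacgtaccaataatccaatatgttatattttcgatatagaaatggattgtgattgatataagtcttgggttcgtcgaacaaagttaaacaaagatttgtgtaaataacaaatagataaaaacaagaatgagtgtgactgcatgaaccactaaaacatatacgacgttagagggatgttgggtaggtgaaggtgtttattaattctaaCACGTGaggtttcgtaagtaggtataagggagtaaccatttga

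The aliphatic branch was close to silent in its dedicated steps in all 4 libraries, as the plot of levels in each library shows. The labels give the ecotype as Col-0, in which these genes are known to be active, and whether the lines carry Col-0 sequence at these genes was not tested. MYB28 (AT5G61420, chr5:24689069-24691187), the main activator of the branch, was at 3.02 and 3.07 RPKM in CNT1 and at 4.40 and 4.59 RPKM in CNT1-G283E. The groups did not overlap, and MYB28 was 1.48-fold lower in CNT1 (log2 difference -0.44 ± 0.093, SE; adjusted p = 0.00424). MYB29 (AT5G07690), which backs up MYB28, had 1 read in each CNT1 library and 0 reads in each CNT1-G283E library. Its neighbour MYB76 (AT5G07700) had 0 reads in all 4 libraries, which allows up to 3 reads, or 0.0707 and 0.0718 RPKM in CNT1 and 0.0745 and 0.0826 RPKM in CNT1-G283E.

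**Figure D1:**
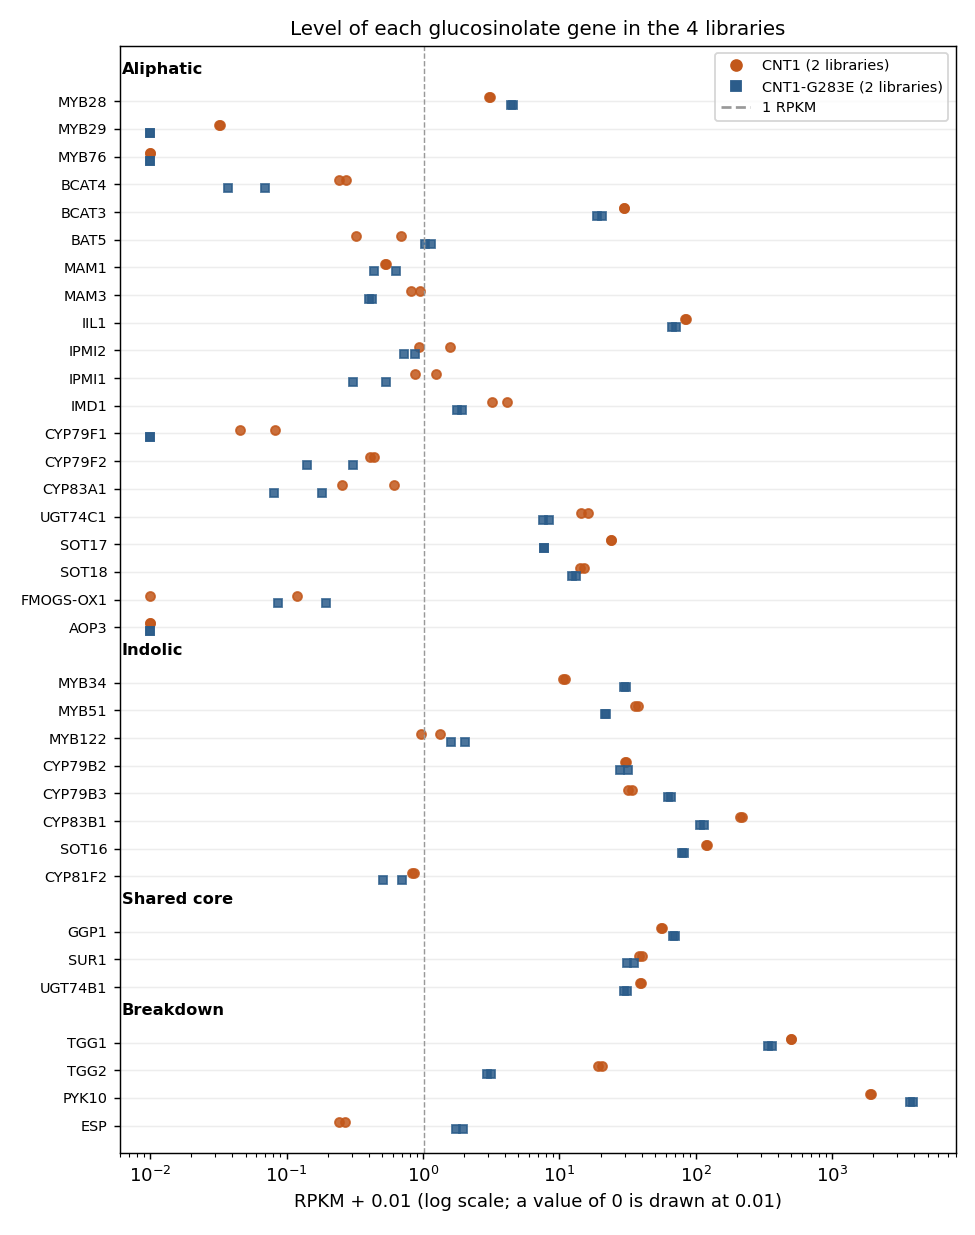
Each point is 1 library, with the RPKM value plus 0.01 on a logarithmic axis and genes listed by branch, CNT1 as circles and CNT1-G283E as squares. Most dedicated aliphatic genes lie left of the dashed line at 1 RPKM in both groups, while indolic, shared and breakdown genes other than CYP81F2, MYB122 and ESP lie to its right.

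Entry into methionine chain elongation was as low. BCAT4 (AT3G19710), the aminotransferase that deaminates methionine, had 9 and 10 reads in CNT1 and 1 and 2 reads in CNT1-G283E. BAT5 (AT4G12030), which carries the resulting acids into the plastid, was at 0.313 and 0.682 RPKM in CNT1 and at 1.13 and 1.02 RPKM in CNT1-G283E, and was lower in CNT1 by a called difference (-0.48 ± 0.156, SE; adjusted p = 0.0289). The call of BAT5 was lost without CNT1 replicate 1 (adjusted p = 0.183), without CNT1-G283E replicate 1 (0.0962) and without CNT1-G283E replicate 2 (0.0588).

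The condensing enzymes of the cycle, MAM1 and MAM3 (AT5G23020), are tandem neighbours on chromosome 5. MAM1 (AT5G23010), which makes the shorter chains, had 26 and 25 reads in CNT1 and 29 and 18 reads in CNT1-G283E. The groups overlapped, and the depth-corrected read ratio was 0.987 with an exact 95% counting interval of 0.651 to 1.499. MAM3, which accepts all chain lengths, had 48 and 41 reads in CNT1 and 19 and 18 reads in CNT1-G283E, a ratio of 2.19 with an interval of 1.48 to 3.30. These intervals cover counting error only. Their coding sequences are identical at 84.2% of aligned bases, with no shared run over 30 bases.

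The later steps of the cycle ranged widely in level. IIL1 (AT4G13430), the large isomerase subunit that both pathways use, was at 84.0 and 83.7 RPKM in CNT1 and at 71.4 and 66.9 RPKM in CNT1-G283E. BCAT3 (AT3G49680, chr3:18422542-18425758), an aminotransferase that also makes branched-chain amino acids, was at 29.8 and 29.7 RPKM in CNT1 and at 18.8 and 20.7 RPKM in CNT1-G283E. Both were higher in CNT1 without overlap, IIL1 by 0.27 ± 0.045 (log2, SE; adjusted p = 0.00121) and BCAT3 by 0.57 ± 0.059 (adjusted p = 9.55e-05). The small isomerase subunits were far lower: IPMI1 (AT3G58990) had 44 and 30 reads in CNT1 against 10 and 16 in CNT1-G283E, and IPMI2 (AT2G43100) had 27 and 45 reads in CNT1 against 24 and 18 in CNT1-G283E. IMD1 (AT5G14200), the dehydrogenase of the cycle, was at 3.21 and 4.12 RPKM in CNT1 and at 1.75 and 1.91 RPKM in CNT1-G283E. IMD1 was 2.00-fold higher in CNT1 (0.71 ± 0.125, log2, SE; adjusted p = 0.00169).

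The first core enzymes of the branch were hardly read. CYP79F1 (AT1G16410), which converts elongated methionines of all lengths, had 2 and 4 reads in CNT1 and 0 reads in both CNT1-G283E libraries, where a count of 0 allows up to 3 reads. The length behind this gene's RPKM is fixed only up to a whole-number factor, so the reads are those at the length nearest the annotated one. CYP79F2 (AT1G16400), its tandem neighbour for long chains, had 23 and 21 reads in CNT1 and 15 and 6 reads in CNT1-G283E, a ratio of 1.91 with an exact 95% counting interval of 1.11 to 3.37. Their coding sequences are identical at 91.8% of aligned bases, with a longest shared run of 100 bases, so the split of reads between them is uncertain. CYP83A1 (AT4G13770), the aldoxime oxidase of the aliphatic branch, had 30 and 12 reads in CNT1 and 8 and 3 reads in CNT1-G283E.

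In the same branch, the last core enzymes were present at ordinary levels. UGT74C1 (AT2G31790, chr2:13518199-13520364), a glucosyltransferase assigned to aliphatic glucosinolates, was at 14.4 and 16.2 RPKM in CNT1 and at 8.39 and 7.61 RPKM in CNT1-G283E, a 1.91-fold higher level in CNT1 (adjusted p = 6.63e-05). SOT17 (AT1G18590, chr1:6398531-6400029), a desulfoglucosinolate sulfotransferase, was at 23.9 and 23.8 RPKM in CNT1 and at 7.75 and 7.66 RPKM in CNT1-G283E. SOT17 was 3.10-fold higher in CNT1 (1.52 ± 0.060, log2, SE; adjusted p = 6.10e-07), the largest log2 difference among the 8 aliphatic members tested. SOT18 (AT1G74090), a second sulfotransferase with the same substrates, was at 14.1 and 15.1 RPKM in CNT1 and at 13.1 and 12.5 RPKM in CNT1-G283E, and did not pass the threshold (0.17 ± 0.067; adjusted p = 0.0539). SOT18 did pass without CNT1-G283E replicate 1 (adjusted p = 0.0484), with a minimum mean of 5 RPKM (0.0482) and without organelle and the 20 most abundant genes (0.0463).

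Of the side-chain enzymes, FMOGS-OX1 (AT1G65860), which oxidises the side-chain sulfur, had 5 and 0 reads in CNT1 and 8 and 3 reads in CNT1-G283E. AOP3 (AT4G03050), which makes hydroxyalkyl side chains and is known not to be expressed in leaves of Col-0, had 0 reads in all 4 libraries, which allows up to 3 reads in each.

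Over the aliphatic branch, 5 of 8 tested members were higher in CNT1 and 2 were lower, beside 31.1% and 29.0% of all genes tested. BAT5, 1 of the 2 lower members, passed the filter only through CNT1-G283E. The median log2 difference of the 8 was 0.42, against 0.03 over all genes tested. The other 12 members with a row stayed under the filter, with no value above 1.56 RPKM, and shared 215 and 189 reads in CNT1 and 114 and 84 reads in CNT1-G283E. In a fit without the filter, in which 47.1% of 24360 genes were called, 24.1% higher in CNT1 and 23.0% lower, BCAT4 (adjusted p = 0.0138), MAM3 (0.00645) and IPMI1 (0.0214) were also called higher in CNT1. CYP79F2 (0.0798), CYP83A1 (0.0916) and IPMI2 (0.157) were not called. Among these members the regulator MYB28 was lower in CNT1, while the called enzymes were higher. The further aliphatic genes described below went both ways, with 4 of 6 tested lower and 2 higher. Among the lower genes, FMOGS-OX2 passed the filter only through CNT1-G283E. Without the filter 4 of 10 were lower and 3 higher.

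Of the 8 indolic members 7 passed the filter, and they did not move as one. Its activators went in opposite directions. MYB34 (AT5G60890, chr5:24494291-24496371), known to act mainly in roots, was at 11.03 and 10.6 RPKM in CNT1 and at 30.8 and 29.8 RPKM in CNT1-G283E. This was 2.80-fold lower in CNT1 (-1.41 ± 0.057, log2, SE; adjusted p = 6.77e-07), without overlap. MYB51 (AT1G18570, chr1:6389399-6391386), known to act mainly in shoots, was at 37.9 and 35.8 RPKM in CNT1 and at 21.5 and 22.1 RPKM in CNT1-G283E, 1.69-fold higher in CNT1 (0.73 ± 0.052; adjusted p = 1.22e-05). Within a library, MYB51 stood at 3.43 and 3.37 times the RPKM of MYB34 in CNT1, and at 0.698 and 0.742 times in CNT1-G283E, so the order of these activators differed between the groups. MYB122 (AT1G74080), the minor activator, was at 1.32 and 0.956 RPKM in CNT1 and at 1.58 and 2.02 RPKM in CNT1-G283E. It was called lower in CNT1 (-0.39 ± 0.142; adjusted p = 0.0452), and the call was lost without CNT1 replicate 2 (0.247), without CNT1-G283E replicate 2 (0.187), with quantile scaling (0.0676), with 0.1 as pseudocount (0.0501), with a replicate block (0.0648) and with no low-value filter (0.0609).

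The entry enzymes CYP79B2 and CYP79B3 (AT2G22330, chr2:9488413-9491404), which both turn tryptophan into indole acetaldoxime, had different outcomes. CYP79B2 (AT4G39950, chr4:18525042-18527602) was at 30.9 and 30.3 RPKM in CNT1 and at 32.0 and 27.7 RPKM in CNT1-G283E, with overlapping groups and no call (0.04 ± 0.069, log2, SE; adjusted p = 0.668). CYP79B3 was at 33.8 and 31.9 RPKM in CNT1 and at 65.7 and 62.1 RPKM in CNT1-G283E, 1.94-fold lower in CNT1 (-0.94 ± 0.051; adjusted p = 2.93e-06). CYP79B2 thus had 0.913 and 0.948 times the RPKM of CYP79B3 in CNT1, and 0.487 and 0.447 times in CNT1-G283E. The coding sequences are identical at 81.2% of aligned bases with no shared run over 32 bases, and the difference between the responses of the 2 genes was not itself tested.

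Downstream of the aldoxime both dedicated enzymes were higher in CNT1. CYP83B1 (AT4G31500, chr4:15273410-15275404), which commits indole acetaldoxime to glucosinolates and away from auxin, was at 216 and 212 RPKM in CNT1 and at 115 and 107 RPKM in CNT1-G283E. CYP83B1 was 1.93-fold higher in CNT1 (0.95 ± 0.047, log2, SE; adjusted p = 1.77e-06). SOT16 (AT1G74100, chr1:27864345-27865694), the sulfotransferase that prefers indolic substrates, was at 118 and 121 RPKM in CNT1 and at 82.0 and 79.6 RPKM in CNT1-G283E, 1.48-fold higher in CNT1 (0.56 ± 0.041; adjusted p = 1.28e-05). CYP81F2 (AT5G57220), which hydroxylates the indole ring in defence, stayed under the filter with 40 and 41 reads in CNT1 and 32 and 21 reads in CNT1-G283E. Of 7 indolic members tested, 3 were higher in CNT1, 3 were lower and 1 was not called, beside the 31.1% and 29.0% of all genes, and the median log2 difference was 0.04. The summed level of the indolic members was 450 and 444 RPKM in CNT1 and 349 and 331 RPKM in CNT1-G283E, and CYP83B1 and SOT16 make up most of that sum.

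The core enzymes that serve both branches differed little. GGP1 (AT4G30530, chr4:14920376-14922519), a peptidase that trims the glutathione conjugate, was at 56.3 and 55.3 RPKM in CNT1 and at 68.1 and 70.7 RPKM in CNT1-G283E, lower in CNT1 by a called difference (-0.31 ± 0.043, log2, SE; adjusted p = 0.00044). SUR1 (AT2G20610), the lyase that cleaves the carbon-sulfur bond, was at 38.6 and 40.4 RPKM in CNT1 and at 35.4 and 31.5 RPKM in CNT1-G283E (0.24 ± 0.063; adjusted p = 0.0129), and was not called without CNT1 replicate 2 (0.0896). UGT74B1 (AT1G24100), the general glucosyltransferase, was at 39.3 and 39.3 RPKM in CNT1 and at 31.3 and 29.6 RPKM in CNT1-G283E (0.36 ± 0.049; adjusted p = 0.000451). All 3 lay within 1.29-fold between the groups, without overlap.

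**Figure D2:**
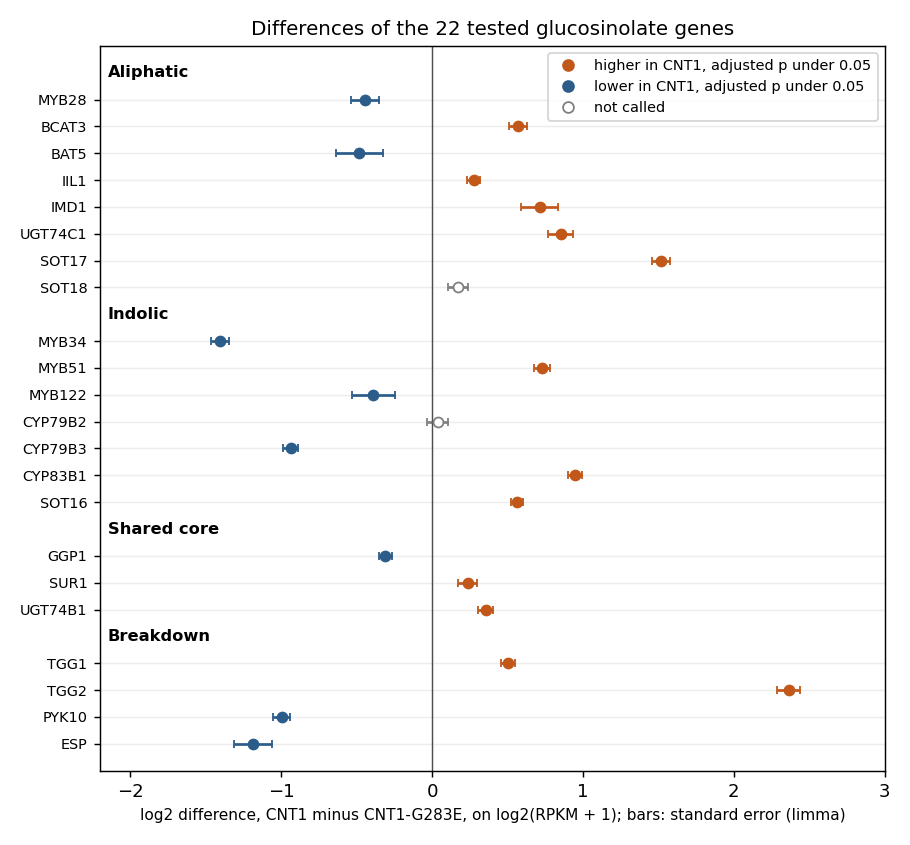
Log2 differences, CNT1 minus CNT1-G283E, of the 22 tested members by branch, with limma standard errors as bars and open circles for genes not called. TGG2 at 2.36 and SOT17 at 1.52 are farthest to the right, and MYB34 at -1.41 is farthest to the left.

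Breakdown genes held the highest log2 difference of the 22, that of TGG2. TGG1 and TGG2 encode the classical myrosinases of shoots, found in guard cells and phloem-associated myrosin cells. TGG1 (AT5G26000, chr5:9079452-9082384) was at 497 and 500 RPKM in CNT1 and at 363 and 339 RPKM in CNT1-G283E, 1.42-fold higher in CNT1 (0.50 ± 0.045, log2, SE; adjusted p = 4.30e-05). TGG2 (AT5G25980, chr5:9072708-9075777) was at 20.4 and 19.3 RPKM in CNT1 and at 3.16 and 2.95 RPKM in CNT1-G283E, 6.51-fold higher in CNT1 (2.36 ± 0.077; adjusted p = 2.83e-07). TGG1 remained the more abundant gene, at 24.3 and 25.9 times the RPKM of TGG2 in CNT1 and at 115 and 115 times in CNT1-G283E. The genes are neighbours on chromosome 5 with coding sequences identical at 83.0% of aligned bases, and their longest shared run is 55 bases.

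PYK10 (AT3G09260, chr3:2840477-2843781), a root and hypocotyl beta-glucosidase that is stored in endoplasmic reticulum (ER) bodies and cleaves indolic glucosinolates, had the sixth-highest mean RPKM of the tested genes. It was at 1914 and 1905 RPKM in CNT1 and at 3936 and 3686 RPKM in CNT1-G283E, 2.00-fold lower in CNT1 (-0.996 ± 0.056, log2, SE; adjusted p = 3.51e-06). ESP (AT1G54040, chr1:20170715-20173949), the epithiospecifier protein that turns breakdown toward nitriles, was at 0.256 and 0.234 RPKM in CNT1 and at 1.94 and 1.73 RPKM in CNT1-G283E. ESP was 7.503-fold lower in CNT1 (-1.19 ± 0.125; adjusted p = 0.000102), with 10 and 9 reads in CNT1 and 72 and 58 reads in CNT1-G283E. Both myrosinase genes were thus higher in CNT1 and PYK10 was lower, while ESP was tested only because it passed the filter through CNT1-G283E.

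**Figure D3:**
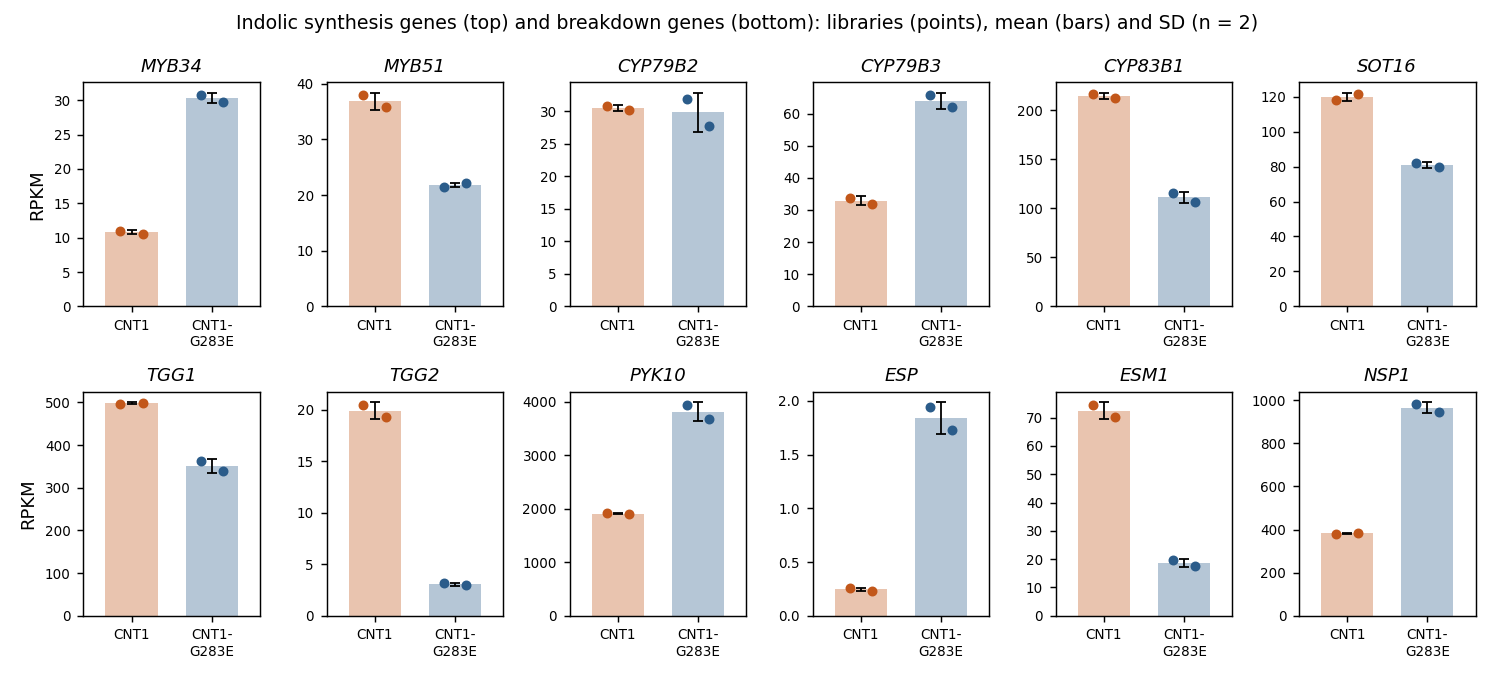
RPKM of 6 indolic synthesis genes (top row) and of 6 breakdown genes (bottom row), with each library as a point, the group mean as a bar and the SD (n = 2) as an error bar, CNT1 left of CNT1-G283E. MYB34 and CYP79B3 are lower in CNT1 beside higher MYB51, CYP83B1 and SOT16, and TGG1, TGG2 and ESM1 are higher beside lower PYK10, ESP and NSP1.

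Further genes of breakdown and of ER bodies, outside the 36, were mostly lower in CNT1, as PYK10 was. Over all genes tested, 29.0% were lower in CNT1 and 31.1% higher. Of 14 tested in this list, 9 were lower, 1 was higher and 4 were not called, with a median of -0.77. These counts depended on single libraries: 12 were lower and 2 higher without CNT1-G283E replicate 1, and 9 were lower and 2 higher without CNT1-G283E replicate 2. The nitrile specifier genes NSP1 and NSP4 were lower in CNT1, NSP1 at 381 and 384 RPKM in CNT1 against 982 and 947 RPKM in CNT1-G283E (2.52-fold; adjusted p = 2.42e-07) and NSP4 at 95.9 and 95.3 RPKM in CNT1 against 231 and 237 RPKM in CNT1-G283E (2.45-fold; adjusted p = 2.06e-07). NAI2, which builds ER bodies, was at 109 and 112 RPKM in CNT1 and at 268 and 288 RPKM in CNT1-G283E (2.52-fold lower; adjusted p = 3.68e-07). Outside the naming rule and chosen after their values were seen, NAI1, the factor that switches on ER body genes, was 2.29-fold lower and PBP1, the PYK10-binding lectin, 2.38-fold lower. NSP1, NSP4 and PBP1 lie near one another on chromosome 3, and how similar their sequences are was not measured. The 1 higher gene with all libraries was ESM1, which favours isothiocyanates over nitriles, at 74.5 and 70.3 RPKM in CNT1 and at 19.6 and 17.7 RPKM in CNT1-G283E (3.88-fold; adjusted p = 2.43e-07). ESM1 therefore stood with the shoot myrosinases in direction, and NSP1, NSP4 and NAI2 with PYK10.

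Several of these genes are known from roots, and root markers differed between the same libraries. Beside the marker counts stand the 29.0% of all genes tested that were called lower in CNT1. Of the 11 root markers 6 were called lower in CNT1 and 5 were not called. The 6 were the endodermal markers CASP1 to CASP5 and MYB36, a subset set apart after values were seen. Their summed level was 173 and 181 RPKM in CNT1 and 522 and 571 RPKM in CNT1-G283E. The 5 root hair markers were not called, 0 of 5, with a summed level of 32.5 and 30.4 RPKM in CNT1 and of 27.9 and 42.3 RPKM in CNT1-G283E. Vascular markers were lower in CNT1 in 6 of 6 cases, summing to 94.2 and 98.5 RPKM in CNT1 and to 178 and 160 RPKM in CNT1-G283E. Guard cell markers were lower in 2 of 4, summing to 18.0 and 16.3 RPKM in CNT1 and to 22.4 and 24.7 RPKM in CNT1-G283E, while TGG1, a guard cell gene, was higher. No marker of these lists was at 0 in any library. In RNA from seedlings, fewer cells of a type and less RNA per cell cannot be told apart, and the part of these markers in the lower PYK10, MYB34 and CYP79B3 was not tested.

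Transcripts for the synthesis of tryptophan, the precursor of the indolic branch, were higher in CNT1 throughout. Tryptophan itself was not measured. All 7 genes tested were called higher, beside 31.1% of all genes tested, with a median log2 difference of 0.73. Their summed level was 223 and 215 RPKM in CNT1 and 126 and 123 RPKM in CNT1-G283E. PAT1, the anthranilate phosphoribosyltransferase, was at 28.1 and 26.0 RPKM in CNT1 and at 12.1 and 12.2 RPKM in CNT1-G283E (2.22-fold; adjusted p = 3.21e-06). TSA1 and TSB1, the tryptophan synthase subunits, were 1.96-fold (adjusted p = 2.98e-06) and 1.68-fold (adjusted p = 4.36e-06) higher. CYP83B1 and SOT16 rose beside them, CYP79B3 fell and CYP79B2 was not called.

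Genes of sulfur supply, a list that joins sulfate activation and reduction with sulfate uptake, glutathione synthesis and genes induced by sulfur limitation, moved both ways. Of 11 genes tested, 7 were higher in CNT1, 2 were lower and 2 were not called, with a median of 0.34. Over all genes tested, 31.1% were higher and 29.0% lower. With limma-voom on recovered reads 4 of the 11 were lower. The 7 higher genes were the kinases APK1 and APK2, the ATP sulfurylases APS1 and APS3 and the reductases APR1 to APR3, all tested genes of activation and reduction in the list. APK1, APS1, APS3 and APR1 are named here after their values were seen. APR2, an APS reductase, was at 48.1 and 46.5 RPKM in CNT1 and at 20.9 and 22.5 RPKM in CNT1-G283E (2.18-fold; adjusted p = 1.80e-06). APR3, a further reductase, was 1.83-fold higher (adjusted p = 9.75e-06), and APK2, a kinase that makes the sulfate donor for SOT16 to SOT18, 1.58-fold higher (adjusted p = 0.000111). The sulfate uptake carrier SULTR1;2 was 1.57-fold lower (adjusted p = 0.000113) and LSU1, a gene induced by sulfur limitation, 1.64-fold lower (adjusted p = 0.00188).

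**Figure D4:**
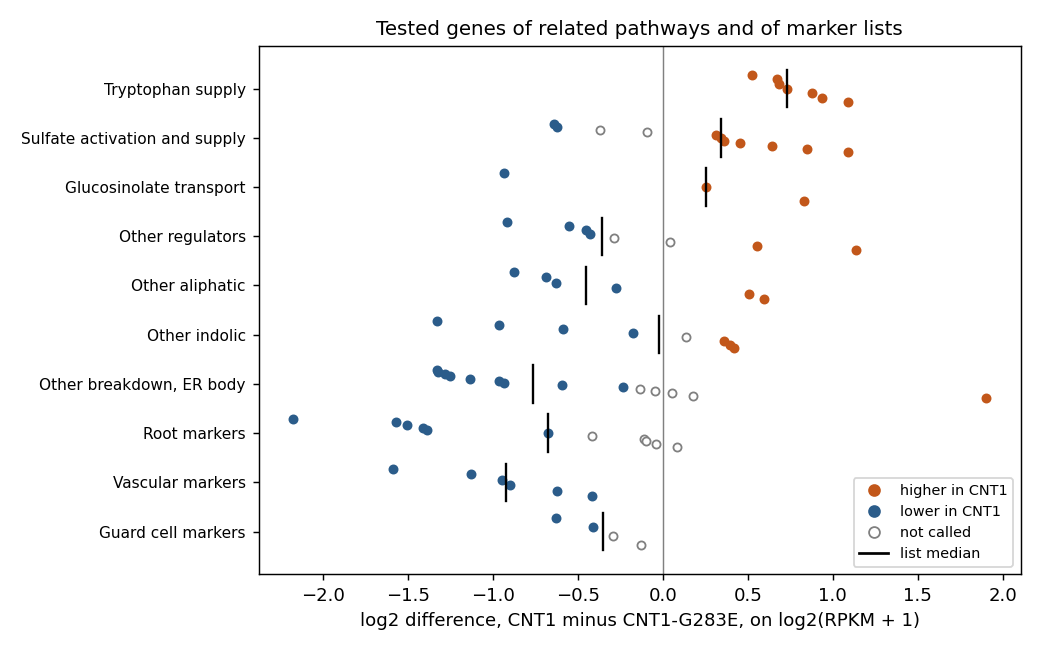
Log2 differences, CNT1 minus CNT1-G283E, of tested genes in lists around the pathway and in marker lists, each point a gene, filled where called, with a black line at the list median. All 7 tryptophan genes lie right of 0, and breakdown genes and root and vascular markers lie mostly left of it.

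Further indolic enzymes outside the 36, a list of modifying enzymes and glutathione transferases, split. Of 8 tested, 3 were higher in CNT1, 4 lower and 1 not called, beside 31.1% higher and 29.0% lower of all genes. Without CNT1 replicate 1 only 1 of the 8 was higher. IGMT5, a methyltransferase that forms the ring-nitrogen methoxy product, was at 23.8 and 24.8 RPKM in CNT1 and at 59.2 and 66.0 RPKM in CNT1-G283E (2.58-fold lower; adjusted p = 1.17e-06). CYP81F4, the hydroxylase that precedes it, was 1.52-fold lower (adjusted p = 0.000103). IGMT1 was 1.98-fold lower (adjusted p = 2.24e-05) and IGMT2 1.46-fold higher (adjusted p = 0.0139), but these methyltransferase genes are close copies and the split of their reads is uncertain. GSTF9, a glutathione transferase linked to the pathway, was 1.31-fold higher (adjusted p = 0.000664) and CYP81F1, another indole hydroxylase, 1.33-fold higher (adjusted p = 0.00511). The call of CYP81F1 was lost without CNT1 replicate 1 (adjusted p = 0.0541), and that of IGMT2 without CNT1 replicate 1 (0.0747), CNT1 replicate 2 (0.0594) or CNT1-G283E replicate 1 (0.0534).

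Further aliphatic genes went both ways, with 4 of 6 tested lower and 2 higher, beside 29.0% lower and 31.1% higher of all genes tested. A further 4 stayed under the filter. In the fit without it, 4 of 10 were lower and 3 higher, beside 23.0% and 24.1% of all genes. FMOGS-OX4, a side-chain oxidase, was at 24.0 and 22.6 RPKM in CNT1 and at 45.3 and 41.8 RPKM in CNT1-G283E (1.87-fold lower; adjusted p = 8.18e-06). GSL-OH, which hydroxylates an alkenyl side chain, was at 116 and 116 RPKM in CNT1 and at 190 and 184 RPKM in CNT1-G283E (1.62-fold lower; adjusted p = 3.31e-06), and FMOGS-OX2 was 3.27-fold lower at 0.363 and 0.266 RPKM in CNT1 against 1.02 and 1.03 RPKM in CNT1-G283E (adjusted p = 0.00396), and passed the filter only through CNT1-G283E. GSL-OH and FMOGS-OX4 were thus read well above the dedicated aliphatic enzymes CYP79F1, CYP79F2 and CYP83A1. IMD3, a dehydrogenase of leucine synthesis, was 1.54-fold higher (adjusted p = 4.10e-05) and GSTU20, a glutathione transferase, 1.46-fold higher (adjusted p = 0.0016).

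Transporters and further regulators also moved both ways. GTR1, a plasma membrane importer of glucosinolates, was at 28.4 and 29.2 RPKM in CNT1 and at 16.0 and 15.5 RPKM in CNT1-G283E (1.83-fold higher; adjusted p = 6.65e-06), and GTR2, its close relative, was 1.20-fold higher (adjusted p = 0.00194). GTR3, a root transporter that takes up indolic glucosinolates, was at 17.0 and 17.6 RPKM in CNT1 and at 35.2 and 32.7 RPKM in CNT1-G283E (1.97-fold lower; adjusted p = 5.25e-06). MYC2, a jasmonate-pathway factor that acts with the MYB proteins, was at 140 and 140 RPKM in CNT1 and at 60.9 and 65.4 RPKM in CNT1-G283E (2.22-fold higher; adjusted p = 6.50e-07). Its partner MYC3 was 1.38-fold lower (adjusted p = 0.000157), IQD1, a calmodulin-binding regulator, 2.13-fold lower (adjusted p = 8.59e-05) and OBP2, a DOF factor, 1.36-fold lower (adjusted p = 0.000265). SDI2, a repressor of the pathway under low sulfur, was 1.5-fold higher (adjusted p = 0.000105). Of the 8 regulators tested, 2 were higher, 4 lower and 2 not called, beside 31.1% higher and 29.0% lower of all genes tested.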

How the data were processed

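Poly(A) RNA of 4 seedling libraries was made into Illumina libraries, as the labels' protocols state. Bowtie2 2.2.2 and TAIR10 are named in the submitters' processing notes, while read assignment to genes, use of strand and treatment of multiply matching reads are not stated there. RPKM per gene model was deposited by the authors, 1 table per library.

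The members and lists were chosen with earlier results of these data known. Outside the 36, the text names from each pathway list, in either direction, the called genes with the lowest adjusted p, 3 at most. Marker lists are given by counts and summed levels, and CASP1 to CASP5 and MYB36 are a subset of the root markers set apart after values were seen. Further list genes (NAI1, PBP1, APK1, APS1, APS3, APR1, TGG4, TGG5, CYP81F3, BGLU21, CYP71A13 and PAD3) were also named after their values were seen. A gene entered the test when 2 or more libraries held 1 RPKM or more. The scale was log2(RPKM + 1), which understates the change of low genes, and the test was limma 3.58.1 in R 4.3.3 (group as the only term, empirical Bayes with trend). The same fit was also run on simulated reads with the same spread setting in both groups, and its outcome is not given here. Depth and reads were recovered as whole numbers: all 24360 rows above 0 came out whole within 0.001 reads, 29.1% of them at an annotated length. Elsewhere the length was fitted, which leaves a whole-number factor open. Between replicates, chi-square over degrees of freedom was 1.71 in CNT1 and 4.42 in CNT1-G283E. A wrong length factor would scale these values, so they do not by themselves show that replicates were separate libraries. Intervals (exact, 95%) and the limit of 3 reads for a count of 0 cover counting error only. Positions and promoters are from RefSeq's TAIR10.1, which matched 26719 of 27416 rows by locus code, handled with Python 3.11.15, pandas 2.3.3 and Biopython 1.88.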

Additional observations from a re-analysis of the deposited data

How the results depend on the processing

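Of the 22 members tested, 17 kept their direction and their side of the threshold wherever they were tested in 13 alternatives: quantile and upper-quartile scaling, no filter, a minimum mean of 5 RPKM, a pseudocount of 0.1, no trend, a replicate block, leaving out each of the 4 libraries, leaving out organelle genes and the 20 most abundant, and limma-voom on recovered reads. The others were MYB122, BAT5, SOT18, SUR1 and CYP79B2. No paired design is given by the labels: same-numbered libraries deviated from their group means with a correlation of -0.02, and with the replicate block 5791 genes were higher and 5423 lower, against 5964 and 5566.

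Aliphatic members called higher numbered 8 without the filter, against 5, and those called lower 0 under the 5 RPKM minimum and 1 to 2 with a library left out, against 2. Breakdown members called lower numbered 1 under the 5 RPKM minimum, where ESP was not tested, and 1 without the 20 most abundant genes, which include PYK10, against 2. The log2 difference of CYP79B2 ranged from -0.0619 to 0.136 with a library left out, that of CYP81F3 from -0.0901 to 0.36, that of TGG4 from -0.436 to 0.167, that of TGG5 from -0.288 to 0.191 and that of BGLU21 from -0.155 to 0.265. Each group held 2 libraries, and no aliphatic member under the filter had more than 48 reads in a library, so their intervals are wide.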

Other observations

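The camalexin branch, which draws on the same CYP79B2 and CYP79B3 product as the indolic glucosinolates, was read at low levels in all 4 libraries. CYP71A13, which dehydrates the aldoxime toward camalexin, was at 0.687 and 0.916 RPKM in CNT1, and at 0 and 0.0251 RPKM in CNT1-G283E. PAD3, the last enzyme of that branch, was at 0.676 and 0.922 RPKM in CNT1 and at 0.289 and 0.247 RPKM in CNT1-G283E. Neither gene reached the filter. In the limma fit without it, in which 24.1% of genes were higher in CNT1, both were called higher (adjusted p = 0.000913 for CYP71A13 and 0.00732 for PAD3). CYP71A13 rested on 32 and 42 reads in CNT1 and on 0 and 1 reads in CNT1-G283E.

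The root-tip myrosinase genes TGG4 (limma adjusted p = 0.52) and TGG5 (0.788) were not called, unlike TGG1 and TGG2. TGG4 was at 10.2 and 9.85 RPKM in CNT1 and at 8.83 and 13.9 RPKM in CNT1-G283E, and TGG5 was at 9.09 and 9.22 RPKM in CNT1 and at 7.89 and 11.4 RPKM in CNT1-G283E. For both, CNT1-G283E replicate 2 was the highest library and CNT1-G283E replicate 1 the lowest, as for the summed root hair markers. The summed endodermal markers did not have CNT1-G283E replicate 1 lowest, at 173 and 181 RPKM in CNT1 and 522 and 571 RPKM in CNT1-G283E. A link between these genes and either set of markers was not tested.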
